A study of Mus musculus with 6 samples.

Results

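The genes described here are the mouse genes that still carry a RIKEN clone number starting with 1700 as their symbol, the series of clones taken from an adult testis cDNA library. Members were chosen by the array annotation, from probe sets with a single symbol that starts with 1700 and ends with Rik, and by a mean intensity of at least 100 over the 6 arrays, with the probe set of highest mean standing for each gene. The array carried 200 such genes on 244 probe sets, and 126 genes met the rule, of 18193 genes with a single symbol in all. The mean over all arrays thus selected the members, so their level is no finding, whereas the differences between strains were not part of the rule. RefSeq lists 122 of the 126 under the same symbol, 67 as protein-coding genes, 48 as long non-coding RNAs (lncRNAs) and 7 as pseudogenes, and 4 have no match there (1700024J04Rik, 1700061N14Rik, 1700126A01Rik and 1700104B16Rik).

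A clone number is a placeholder symbol, used until a gene is given a name for what it does. Meiotic and post-meiotic male germ cells are known for transcribing many genes that other tissues leave silent, among them lncRNAs and genes for proteins of the acrosome and the sperm tail. RNA from a whole testis mixes these germ cells with Sertoli cells, which nurse them, and Leydig cells, which make testosterone. Fewer cells of a type and less RNA per cell cannot be told apart in such bulk samples.

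Total RNA came from testes of untreated mice aged 8 weeks. C57BL/6 supplied 2 mice, AKR/N 2 and MRL/MpJ-+/+ (MRL/MpJ below) 2, all inbred, with 1 array per mouse. The labels name no transgene, deletion or treatment in any group. The study compared testis expression between the strains. Intensities are linear and on 1 scale, with trimmed means between 124.549 and 124.608 and median probe sets between 28 and 30.7 on the 6 arrays. Arrays of 1 strain correlated at r = 0.98 to 0.985 over the tested probe sets and arrays of different strains at 0.96 to 0.974. Of the marker genes for germ cells, none of the 15 for spermatocytes, the 13 for round spermatids and the 13 for elongating spermatids lay below the array median on all arrays. Of the 12 for spermatogonia, 1 lay at or below it on all arrays.

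The 5' regions of the 5 members in RefSeq with the smallest F test p over the strains are given first, as the sequences whose transcripts the values below follow. Each is the 250 bases before the annotated start in the reference assembly GRCm38.p6, a C57BL/6 genome, written 5' to 3' on the gene's strand, with CG dinucleotides, the sites of DNA methylation, in capitals. The sequence that AKR/N and MRL/MpJ carry there was not used here. 1700001C19Rik has 3 annotated starts, of which 1 is shown, and 1700104B16Rik has no entry.
1700063D05Rik, chr9:41205905-41206154, plus strand: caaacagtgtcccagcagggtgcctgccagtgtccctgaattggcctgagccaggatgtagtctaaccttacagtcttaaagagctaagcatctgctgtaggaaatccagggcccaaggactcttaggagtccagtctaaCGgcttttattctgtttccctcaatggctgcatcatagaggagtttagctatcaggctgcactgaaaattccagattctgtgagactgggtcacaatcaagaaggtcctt
1700003P14Rik, chr13:118555918-118556167, plus strand: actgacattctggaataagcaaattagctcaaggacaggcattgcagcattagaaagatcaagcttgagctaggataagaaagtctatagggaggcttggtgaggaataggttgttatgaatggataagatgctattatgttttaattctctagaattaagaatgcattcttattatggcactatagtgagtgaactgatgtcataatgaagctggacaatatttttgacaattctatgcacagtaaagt
1700097N02Rik, chr17:30626906-30627155, minus strand: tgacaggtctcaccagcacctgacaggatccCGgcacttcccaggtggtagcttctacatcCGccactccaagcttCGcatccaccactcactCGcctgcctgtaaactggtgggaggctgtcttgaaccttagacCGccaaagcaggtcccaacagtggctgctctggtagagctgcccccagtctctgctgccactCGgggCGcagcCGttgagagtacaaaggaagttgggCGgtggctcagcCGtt
1700001C19Rik, chr17:47437376-47437625, minus strand: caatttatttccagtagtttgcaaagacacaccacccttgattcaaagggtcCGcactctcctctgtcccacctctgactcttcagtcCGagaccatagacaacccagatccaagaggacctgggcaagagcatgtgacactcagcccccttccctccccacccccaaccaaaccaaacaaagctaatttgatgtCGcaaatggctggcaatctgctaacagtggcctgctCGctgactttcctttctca
1700006J14Rik, chr10:120363884-120364133, plus strand: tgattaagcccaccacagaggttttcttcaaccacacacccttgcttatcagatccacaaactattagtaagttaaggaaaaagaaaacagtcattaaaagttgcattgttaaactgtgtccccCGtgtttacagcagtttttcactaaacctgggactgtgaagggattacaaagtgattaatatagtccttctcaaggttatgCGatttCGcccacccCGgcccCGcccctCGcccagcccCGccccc
The first 2 of these windows hold 1 and 0 CG dinucleotides, that of 1700097N02Rik holds 10, and those of 1700001C19Rik and 1700006J14Rik hold 4 and 7. The median was 4 over the 99 members with such a window and 6 over all 27025 genes with one.

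A few short motifs known from promoters of germ cell genes or promoters in general were searched on both strands of these windows. The shares of all promoters are over the 27025 genes with a window, whatever their level in testis, whereas the members were chosen by level. The letters GTTGCC, a core of the motif of RFX factors, which regulate ciliary and spermatid genes, occurred in 18 of 99 members (18.2%) against 10.5% of all promoters. It was present in 14 of the 60 protein-coding members (23.3%) and in 4 of the 39 lncRNA members (10.3%). The full cyclic AMP response element, TGACGTCA, the site of the spermatid activator CREM, was found in 1 member (1.01%) against 1.62% of all promoters. The TATA box letters, TATAAA, stood in 10 members (10.1%) against 13% of all. The motifs do not overlap in their letters, a match is a description of the letters only, and the 5 windows printed above hold none of the 3.

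Strain differences are given as differences of log2(intensity + 16) with their standard error (SE) from limma, and a call means a p under 0.05 after Benjamini-Hochberg adjustment over all 29692 probe sets tested. The SE had a median of 0.09 over the members. The F test of limma over the 3 strains called 58 of the 126 members, 46.0%. Of the 7738 genes with a mean intensity of at least 100, it called 26.9%. Among other RIKEN clone genes at that level, given as companions below, it called 41.4% of 145 in the nearest series and 32.3% of the remaining 99. By class, it called 36 of 67 protein-coding members (53.7%, against 26.2% of all protein-coding genes at that level). Of the 48 lncRNA members it called 17 (35.4%), below the 42.2% of all lncRNA genes at that level, and of the 7 pseudogenes 2 (28.6%), against 55.8%. Of the 4 unmatched members 3 were called. These class differences were not tested. Arrays of the same strain differed by a median of 0.13 between the C57BL/6 mice, 0.08 between the AKR/N mice and 0.10 between the MRL/MpJ mice, on the log2 scale over the 126 members. The count of 58 fell to 37 without AKR/N replicate 2 and to 38 without MRL/MpJ replicate 1, and to 7 when the fit used no variance trend.

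The strain order of the members leaned to MRL/MpJ at the bottom and AKR/N at the top. Both MRL/MpJ arrays were the lowest of the 6 for 51 members (40.5%), against 16.9% of all genes with a mean of at least 100, and both were the highest for 5 members (3.97%), against 18.1%. Both AKR/N arrays were the highest for 41 members (32.5%), against 16.2%, and the lowest for 10 (7.94%), against 12%. For C57BL/6 the highest and lowest counts were 22 (17.5%, against 15.4%) and 4 (3.17%, against 8.46%). This way of counting was chosen after the values were seen and has no test.

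**Figure D1:**
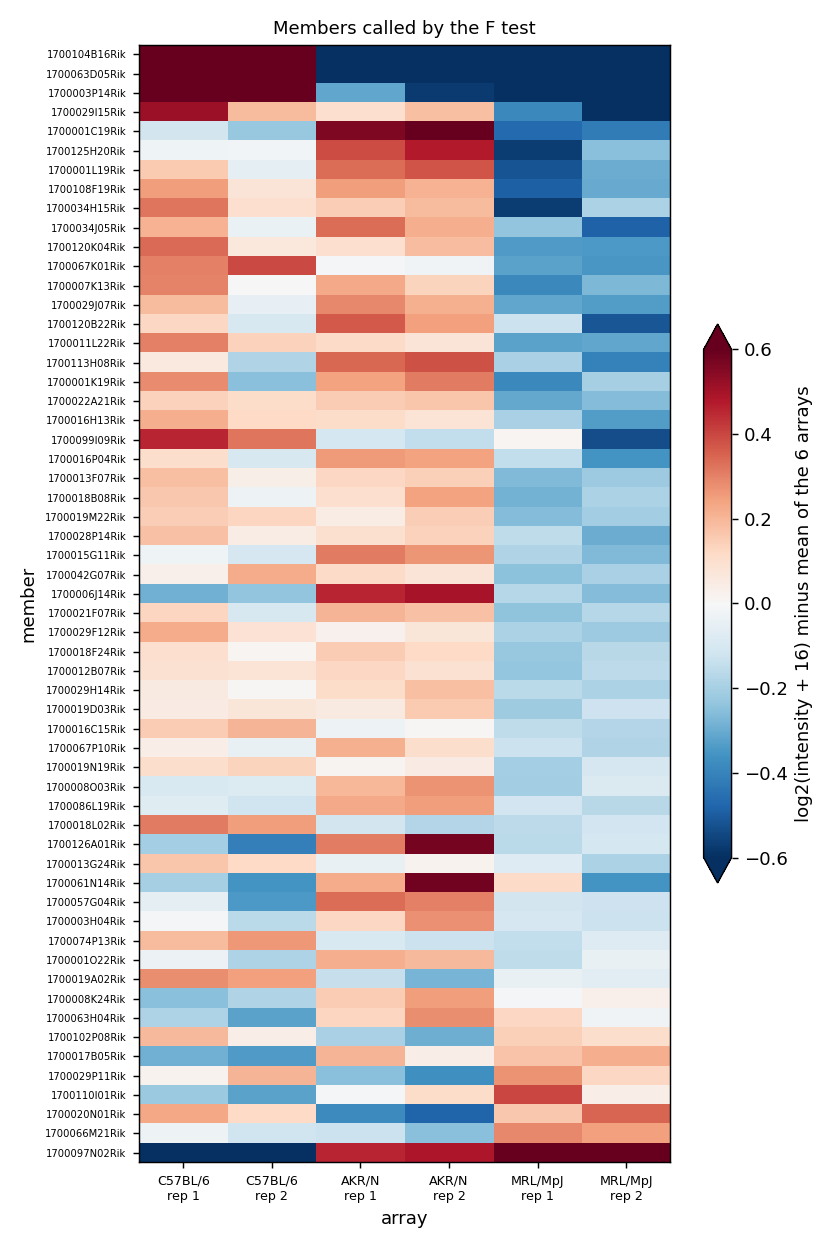
Each row is 1 of the 58 members called by the F test and each column 1 array, coloured by log2(intensity + 16) minus the mean of the 6 arrays, with colours saturated beyond 0.6 in either direction. Rows are ordered by the MRL/MpJ arrays relative to the other 4, so most rows show blue in MRL/MpJ; by strain mean, MRL/MpJ was lowest in 41 of the 58 and AKR/N highest in 32.

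Of the members, 3 were measured at 100 or more in C57BL/6 only, and they entered the list through that strain, so their differences are a description. 1700104B16Rik, which RefSeq does not list, had intensities of 710.0 and 760.8 on the C57BL/6 arrays, 16.2 and 8.99 on those of AKR/N, and 18.9 and 11.5 on those of MRL/MpJ. All 4 AKR/N and MRL/MpJ values lay below the median probe set of their array, and the strains did not overlap. On the log2 scale it was lower by -4.60 ± 0.18 (SE) in MRL/MpJ and by -4.73 ± 0.18 in AKR/N than in C57BL/6. The lncRNA 1700063D05Rik had 376.7 and 345.6 in C57BL/6, 1.09 and 10.1 in AKR/N, then 3.96 and 5.79 in MRL/MpJ. It too was below the array median on all 4 arrays of AKR/N and MRL/MpJ, and its differences were -4.18 ± 0.22 and -4.16 ± 0.22. A dimmer probe set of that gene had 62.9 and 26.7 in C57BL/6 and between 0.46 and 2.56 on the other 4 arrays. Its differences, also a description, were -1.82 and -1.73. 1700104B16Rik and 1700063D05Rik were the 2 members near absent in a strain, against 0.207% of all genes with a mean of at least 100. Near absent means both arrays at or below the array median with both arrays of another strain at 100 or more. Both members entered through C57BL/6, so this count too is a description.

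The lncRNA 1700003P14Rik was less extreme, with 225.4 and 205.2 in C57BL/6, 69.9 and 55.7 in AKR/N and 48.6 and 53.5 in MRL/MpJ. The C57BL/6 arrays were again both above the other 4, with log2 differences of -1.79 ± 0.14 for MRL/MpJ and -1.56 ± 0.14 for AKR/N. Between AKR/N and MRL/MpJ the 3 members differed by no more than -0.23 ± 0.14 (adjusted p = 0.43 by limma), a value of 1700003P14Rik.

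The lncRNA 1700097N02Rik had the opposite order. Its intensities were 530.4 and 537.1 in C57BL/6, 2074 and 2114 in AKR/N and 3008 and 3054 in MRL/MpJ, so the 3 strains were separate with AKR/N between the others. It was higher than in C57BL/6 by 2.47 ± 0.06 in MRL/MpJ (limma adjusted p = 8.2e-09) and by 1.94 ± 0.06 in AKR/N (5.6e-08), and higher in MRL/MpJ than in AKR/N by 0.53 ± 0.06 (0.00057). A second probe set of the gene gave 2.90, 2.36 and 0.54, all called, and a dim further one 0.84 in MRL/MpJ against C57BL/6 (adjusted p = 0.015). The nearest tested genes in RefSeq order, Glo1 with 1 untested gene between and Dnah8 with 0, were called as well. Glo1, the enzyme that clears methylglyoxal, had 195.6 and 254.6 in C57BL/6, 334.8 and 333.5 in AKR/N and 468.1 and 457.2 in MRL/MpJ. Glo1 was higher by 1.00, 0.55 and 0.45 in the same 3 comparisons (adjusted p = 0.00032, 0.012 and 0.042 by limma). On the other side Dnah8, a dynein heavy chain of the sperm tail, was higher in MRL/MpJ than in C57BL/6 by 0.57 and than in AKR/N by 0.58 (0.00068 and 0.00084), while AKR/N and C57BL/6 differed by -0.02 (0.92).

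**Figure D2:**
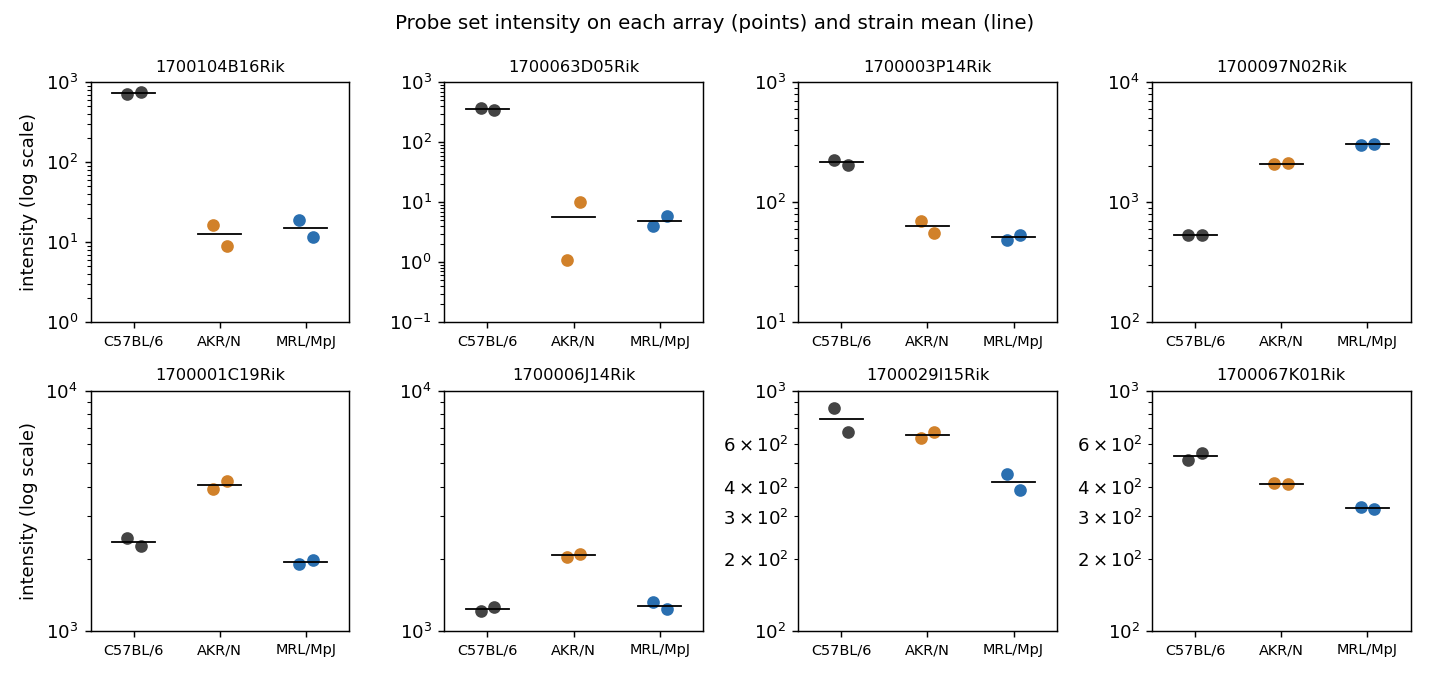
Intensity on a log axis for 8 members, with 1 point per array and a line at the strain mean; the axis range differs between panels. The 2 C57BL/6 points stand above the other 4 for 1700104B16Rik, 1700063D05Rik and 1700003P14Rik and below them for 1700097N02Rik, whereas the AKR/N points stand above the other 4 for 1700001C19Rik and 1700006J14Rik.

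**Figure D3:**
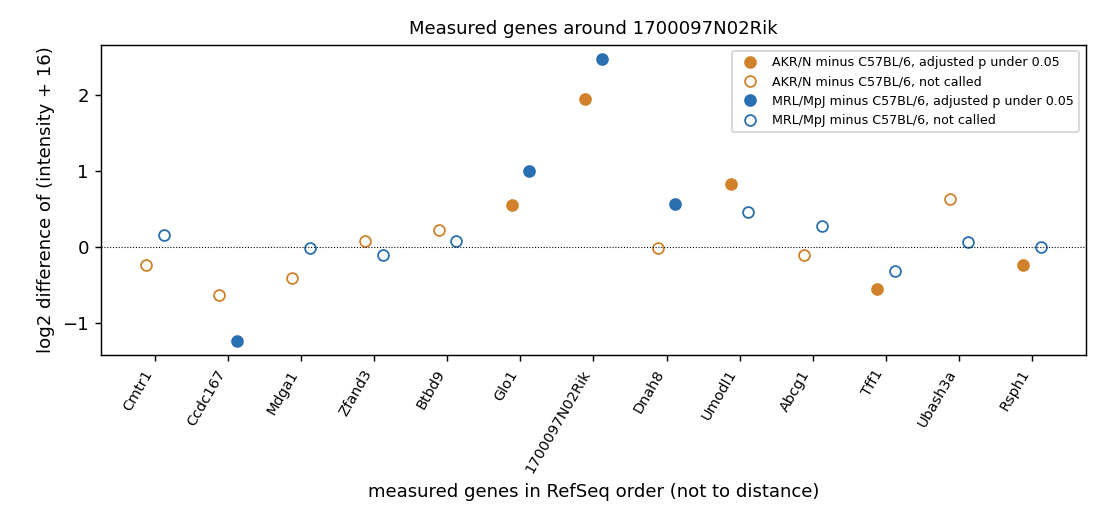
Log2 difference from C57BL/6 for AKR/N and MRL/MpJ at 1700097N02Rik and the 6 measured genes on each side in RefSeq order, not drawn to distance. Filled points have an adjusted p under 0.05 by limma. Glo1, the nearest measured gene on 1 side, is filled in both strains and Dnah8 in MRL/MpJ (0.57). Also filled are Ccdc167 in MRL/MpJ (-1.23) and, in AKR/N, Umodl1 (0.83), Tff1 (-0.55) and Rsph1 (-0.24).

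MRL/MpJ differed from C57BL/6 mainly by lower values. In MRL/MpJ 33 members were called lower (26.2%) and 6 higher (4.76%), against 8.67% lower and 8.79% higher among all genes with a mean of at least 100. The members' median log2 difference was -0.13 against 0.02 for those genes, and 87 of 126 members were below 0. Most lower calls were small, with a median size of 0.39 over the 39 calls, or 1.31-fold, and only 4 calls of 2-fold or more, which are 1700104B16Rik, 1700063D05Rik, 1700003P14Rik and 1700097N02Rik. No called member had overlapping arrays between the strains, but with 2 arrays per strain a call largely implies this, so it adds no support.

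The protein-coding members carried much of this count. Of these 67, 23 were called lower in MRL/MpJ than in C57BL/6 (34.3%) and 2 higher, with a median of -0.22 and 55 below 0. All protein-coding genes with a mean of at least 100 had 8.39% lower and a median of 0.02. The 48 lncRNA members had 7 lower and 4 higher calls and a median of 0.01, beside 15.5% lower among the 232 lncRNA genes of that level. Among the 7 pseudogenes, 2 were called lower (28.6%, against 20.9% of 43 pseudogenes at that level). The difference between the classes was not tested. By level, 6 of 29 members with means of 100 to 300 were called lower (20.7%, against 6.26% of genes), 10 of 44 at 300 to 1000 (22.7%, against 10.4%) and 17 of 53 at 1000 or more (32.1%, against 11.9%).

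**Figure D4:**
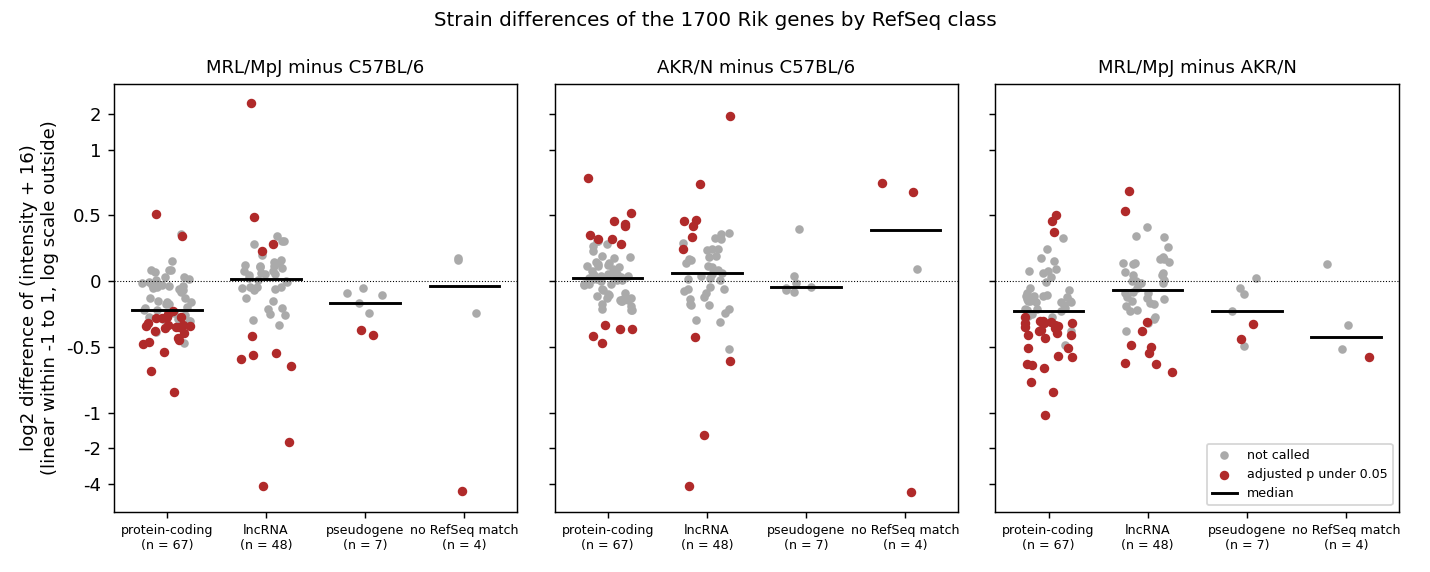
Log2 difference of each of the 126 members in the 3 strain comparisons, by RefSeq class, with called members in red and the class median as a bar; the axis is linear between -1 and 1 and logarithmic outside. The protein-coding medians lie at -0.22 and -0.23 in both comparisons that hold MRL/MpJ and at 0.03 in AKR/N against C57BL/6.

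The protein-coding gene 1700029I15Rik had intensities of 851.0 and 677.2 in C57BL/6, 635.1 and 672.5 in AKR/N and 449.4 and 385.0 in MRL/MpJ. Both MRL/MpJ arrays were below the other 4, and it was lower than in C57BL/6 by -0.84 ± 0.11 (limma adjusted p = 0.000935). 1700067K01Rik, also protein-coding, had 515.8 and 551.7, 412.9 and 409.2, and 329.7 and 322.8 in the same order, so that the 3 strains stepped down without overlap (-0.68 ± 0.08, adjusted p = 0.00046 by limma). The lncRNAs 1700099I09Rik, 1700034H15Rik and 1700108F19Rik were lower by -0.65, -0.59 and -0.56. The pseudogenes 1700022A21Rik and 1700019M22Rik were lower by -0.41 and -0.37. Of these, 1700099I09Rik lost its call on leaving out any 1 of 5 arrays. 1700034H15Rik and 1700108F19Rik lost theirs on leaving out either of 2 arrays, whereas the others kept it without any 1 array. A second, dim probe set of 1700034H15Rik ran the other way without a call (0.57, adjusted p = 0.10), and the mean of both was -0.01 (0.97). That probe set was called higher in AKR/N than in C57BL/6 (0.80, adjusted p = 0.027 by limma), where the brighter one gave -0.04 (0.89).

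The 6 members higher in MRL/MpJ than in C57BL/6 were led by 1700097N02Rik. 1700017B05Rik, protein-coding, had 631.3 and 610.1 in C57BL/6, 894.9 and 797.0 in AKR/N and 875.0 and 904.9 in MRL/MpJ, so C57BL/6 was the low strain. It was higher by 0.51 ± 0.08 in MRL/MpJ and 0.43 ± 0.08 in AKR/N (adjusted p = 0.0024 and 0.0059 by limma). Averaged with its dim other tested probe set, the differences were 0.09 and -0.01, and without AKR/N replicate 1 the AKR/N call was lost (adjusted p = 0.070). The other 4 were 1700110I01Rik (0.49), 1700066M21Rik (0.34), 1700051A21Rik (0.28) and 1700008K24Rik (0.23). Each of these 4 lost its call without MRL/MpJ replicate 1, but not only then. In the same order, removal of 2, 4, 5 and 6 single arrays lost the call, so that of 1700008K24Rik fell without any 1 of the 6. For 1700051A21Rik 2 other probe sets, about as bright (means of 668 and 653 against 689), gave 0.02 and 0.11 without a call, and the mean of its probe sets was 0.14 (adjusted p = 0.24 by limma).

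The markers of round spermatids, the haploid cells that build the acrosome, moved in the same comparison. Of 13 such genes, 7 were called lower in MRL/MpJ than in C57BL/6 and 0 higher, with a median of -0.32. Their summed intensity was 23099 and 22306 in C57BL/6, 22789 and 23112 in AKR/N and 18803 and 19843 in MRL/MpJ. Sun5, which couples the sperm head to the tail, had the largest difference (-0.78, adjusted p = 0.0001 by limma). Elongating spermatid markers had 3 of 13 lower, a median of -0.13 and sums of 75891 and 81419, 71391 and 75761, and 66765 and 73263 in the same strain order. The 15 spermatocyte markers had 2 higher and 3 lower and a median of 0.03. Of the Leydig cell markers, 4 of the 6 tested were higher, with a median of 0.70. The part of these shifts in the members' result was not tested.

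**Figure D5:**
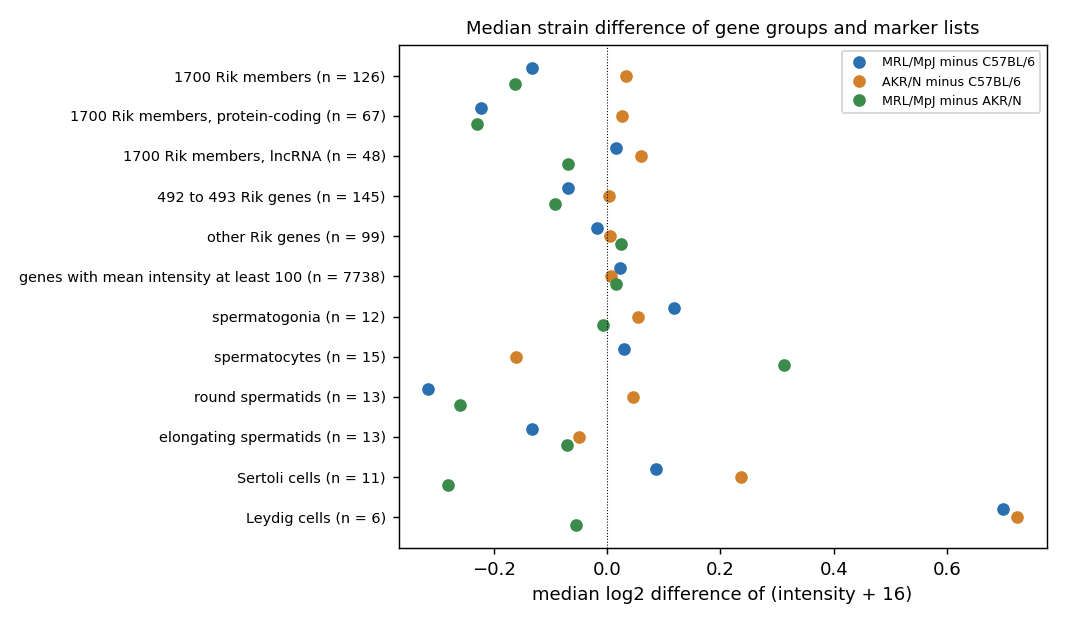
Median log2 difference in the 3 strain comparisons for the members, their 2 largest classes, other RIKEN clone genes, all genes with a mean of at least 100, and marker lists of testis cell types. The members and the round spermatid markers lie left of 0 in both comparisons with MRL/MpJ (-0.13 and -0.16 against -0.32 and -0.26) and near 0 between AKR/N and C57BL/6 (0.03 and 0.04).

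The count of calls between MRL/MpJ and C57BL/6 rested in part on single arrays. It was 39 with all arrays and 19 (15 lower) when C57BL/6 replicate 1 was dropped. Dropping MRL/MpJ replicate 1 left 18 (16 lower), dropping its replicate 2 left 24 (21 lower), and a fit with no variance trend left 6 (5 lower).

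AKR/N differed from C57BL/6 in both directions. In AKR/N 18 members were called higher (14.3%) and 10 lower (7.94%), against 9.14% higher and 7.59% lower among all genes with a mean of at least 100. The members' median difference was 0.03, and that of the genes 0.01. Protein-coding members had 9 higher (13.4%) and 5 lower calls (7.46%), against 8.91% and 7.34% of all protein-coding genes at that level. The lncRNAs had 7 higher (14.6%) and 4 lower (8.33%), against 14.7% in each direction for their class. Limma called 0 of the 7 pseudogenes, with 1 at an unadjusted p under 0.05, where the class had 16.3% higher and 11.6% lower, and the 4 unmatched members had 2 higher and 1 lower. Marker lists moved in this comparison too. Of the Leydig cell markers, 4 of the 6 tested were called higher in AKR/N (median 0.72), of Sertoli cell markers 4 of 11 (0.24) and of adipose markers 2 of 3 (1.97). Among 15 spermatocyte markers 5 were called lower and 1 higher (-0.16), and the round spermatid markers had a median of 0.04. The adipose markers summed to 537.6 and 260.8 in AKR/N, against 177.3 and 150.7 in C57BL/6, so that 1 AKR/N array stood out. In MRL/MpJ they summed to 252.6 and 240.7. Of 6 epididymis markers only Rnase10 was tested. Its intensities were 68.8 and 78.0 in C57BL/6, 12.5 and 4.84 in AKR/N and 15.6 and 12.2 in MRL/MpJ. Against C57BL/6 it was called lower in AKR/N (-1.87) and in MRL/MpJ (-1.58). The part of these lists in the result for the members was not tested. The 7 lower calls other than the 3 members that entered through C57BL/6 were of -0.33 to -0.61.

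1700001C19Rik, a protein-coding gene, had intensities of 2446 and 2259 in C57BL/6, 3906 and 4206 in AKR/N and 1906 and 1970 in MRL/MpJ. AKR/N was above the other strains on both arrays. A dim other probe set (mean 39.0) gave 0.07 in AKR/N against C57BL/6 and -0.57 in MRL/MpJ against AKR/N, neither called. Averaged over both probe sets, these differences were 0.43 and -0.81, both called. On the brighter probe set, AKR/N differed from C57BL/6 by 0.78 ± 0.07 (adjusted p = 4e-05 by limma). There MRL/MpJ differed from AKR/N by -1.06 ± 0.07 (6.6e-06). Its smaller difference between MRL/MpJ and C57BL/6 (-0.28, adjusted p = 0.025 by limma) lost its call on leaving out any 1 of 3 arrays. The lncRNA 1700006J14Rik had the same order, with 1211 and 1257 in C57BL/6, 2041 and 2096 in AKR/N and 1315 and 1233 in MRL/MpJ. It was higher in AKR/N than in C57BL/6 by 0.74 ± 0.07 and lower in MRL/MpJ than in AKR/N by -0.69 ± 0.07 (5.6e-05 and 0.00013 by limma), whereas MRL/MpJ and C57BL/6 differed by 0.05 ± 0.07 (adjusted p = 0.74).

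The unmatched members 1700126A01Rik and 1700061N14Rik were higher in AKR/N by 0.75 ± 0.11 and 0.68 ± 0.15 (adjusted p = 0.002 and 0.019 by limma). 1700126A01Rik had means of 449.6 ± 61.5 (SD, n = 2) in AKR/N, beside 261 ± 27.4 in C57BL/6 and 295 ± 8.63 in MRL/MpJ. 1700061N14Rik had 372.8 and 331.9, 505.3 and 650.1, and 468.4 and 332.7. The AKR/N arrays were above all others for both genes. Further rises were those of 1700057G04Rik (0.52), 1700061F12Rik (0.46), 1700063H04Rik (0.46) and 1700008K24Rik (0.42). Without AKR/N replicate 2, 1700061N14Rik, 1700061F12Rik and 1700063H04Rik lost their calls. For these, removal of 2, 3 and 3 single arrays lost the call.

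1700020N01Rik, an lncRNA, was the low counterpart, with 928.9 and 857.5 in C57BL/6, 602.2 and 560.8 in AKR/N and 883.1 and 1009 in MRL/MpJ. Both AKR/N arrays lay below the other 4, by -0.61 ± 0.09 relative to C57BL/6 (adjusted p = 0.0014 by limma), and MRL/MpJ was 0.69 ± 0.09 above AKR/N (0.00097). The other falls were 1700019A02Rik (-0.47), 1700018L02Rik (-0.42), 1700029P11Rik (-0.42), 1700067K01Rik (-0.36), 1700102P08Rik (-0.36) and 1700074P13Rik (-0.33). Of these 6, all but 1700019A02Rik lost the call without AKR/N replicate 2. In their order above, removal of 1, 2, 3, 2 and 1 single arrays lost it. The whole count of 28 was 17 without AKR/N replicate 1, 12 without AKR/N replicate 2, 16 without C57BL/6 replicate 2 and 6 with no variance trend.

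MRL/MpJ and AKR/N differed most often by lower values in MRL/MpJ. There 38 members were called lower (30.2%) and 5 higher (3.97%), against 8.04% lower and 5.75% higher among all genes with a mean of at least 100. The median difference was -0.16 over the members and 0.02 over those genes, and 94 of 126 members were below 0. This comparison and the one with C57BL/6 share the MRL/MpJ arrays, so they are not independent. By class, 27 of 67 protein-coding members were lower (40.3%, against 7.67% of the class) and 3 higher, with a median of -0.23. Of the 48 lncRNAs, 8 were lower (16.7%, against 15.5%) and 2 higher, with a median of -0.07, and of the 7 pseudogenes 2 were lower (28.6%, against 32.6%). The lncRNA and pseudogene shares thus lay near those of their classes.

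After 1700001C19Rik, the largest falls were those of the protein-coding genes 1700125H20Rik and 1700001L19Rik. 1700125H20Rik had 389.2 and 413.5 in AKR/N and 191.9 and 243.3 in MRL/MpJ, beside 287.0 and 288.9 in C57BL/6, which lay between them (-0.85 ± 0.11, adjusted p = 0.0014 by limma). 1700001L19Rik had 778.0 and 670.1 in C57BL/6, 881.9 and 909.6 in AKR/N and 480.3 and 562.9 in MRL/MpJ (-0.77 ± 0.10, adjusted p = 0.001 by limma). The strains did not overlap for either gene. 1700006J14Rik (-0.69, given above) and 1700113H08Rik (-0.66) followed, then 1700034J05Rik (-0.64), 1700029I15Rik (-0.63) and the lncRNA 1700120B22Rik (-0.63). The last 3 lost their calls without MRL/MpJ replicate 2, and in their order removal of 2, 2 and 3 single arrays lost them. The difference of 1700029I15Rik averaged over its probe sets was -0.36 (adjusted p = 0.099 by limma).

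The 5 members higher in MRL/MpJ than in AKR/N were 1700020N01Rik, 1700097N02Rik, 1700029P11Rik (0.51), 1700066M21Rik (0.46) and 1700102P08Rik (0.37). 1700029P11Rik, protein-coding, had 971.4 and 894.6 in AKR/N against 1400 and 1264 in MRL/MpJ and 1174 and 1335 in C57BL/6, so AKR/N was the low strain. It and the other 2 named with their values lost the call without AKR/N replicate 2. For these 3, removal of 2, 3 and 4 single arrays lost it. In the same comparison lower calls fell on 6 of 13 markers of round spermatids (median -0.26) and 2 of 13 of elongating spermatids (-0.07), and higher calls on 7 of 15 of spermatocytes (0.31), and the part of these in the members' result was not tested. The count of 43 calls was 17 and 11 without AKR/N replicates 1 and 2, 19 and 16 without MRL/MpJ replicates 1 and 2, and 2 with no variance trend.

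The 10 members of highest mean intensity, between 2782 and 4841, included 1700001C19Rik. The protein-coding 1700074P13Rik had 5483 and 5760 in C57BL/6, 4518 and 4401 in AKR/N and 4334 and 4552 in MRL/MpJ, so C57BL/6 was high by about the same amount against both (-0.33 ± 0.06 in AKR/N and -0.34 ± 0.06 in MRL/MpJ, adjusted p = 0.0044 and 0.004 by limma). 1700019M22Rik (-0.37), 1700003F12Rik (-0.33) and 1700019D03Rik (-0.23) were also called lower in MRL/MpJ than in C57BL/6. 1700003F12Rik lost this call on leaving out any 1 of 4 arrays and 1700019D03Rik on leaving out any 1 of the 6. The call of 1700019D03Rik was also lost under quantile normalization (-0.17) and median centring (-0.18). 1700029H14Rik was called in MRL/MpJ against AKR/N (-0.32, limma adjusted p = 0.0088) but in neither other comparison, and lost that call on leaving out either of 2 arrays. 1700123L14Rik, 1700009N14Rik, 1700018B24Rik and 1700010I14Rik were called in no comparison. Their differences ran from -0.21 to 0.11, with standard errors of 0.06 to 0.09. The probe sets of 1700010I14Rik disagreed, however. A second one, nearly as bright (mean 3025 against 3308), had 2537 and 2024 in C57BL/6, 4032 and 3277 in AKR/N and 3188 and 3091 in MRL/MpJ. It was called higher than in C57BL/6 in MRL/MpJ (0.47, adjusted p = 0.024 by limma) and in AKR/N (0.68, 0.0033), while a further one, at a mean of 1593, gave -0.11 and 0.14 without a call.

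At the other end, 1700007E05Rik, 1700010H22Rik and 1700003P14Rik were just inside the threshold, with means of 107.4, 109.7 and 109.7. 1700034G24Rik, 1700020L24Rik and 1700095A13Rik were just outside, at 89.8, 90.5 and 93.4. Of all members, 120 had at least 100 on each of the 6 arrays. In the mean of 1 strain only, 4 members reached 100, the 3 described above through C57BL/6 and 1700007E05Rik through AKR/N (97.7, 134.1 and 90.4 in C57BL/6, AKR/N and MRL/MpJ). Without these 4, the lower calls in MRL/MpJ against C57BL/6 were 30 and the higher ones 6, and in AKR/N against C57BL/6 they were 7 and 18.

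Other probe sets of the same genes gave a second reading. They are dimmer by the choice of the brightest, some only slightly. Of the 28 tested on 22 genes, 13 belonged to members called between MRL/MpJ and C57BL/6. Of these, 11 had the same direction, 3 of them called, and 2 the opposite direction, neither called. For AKR/N against C57BL/6, 5 of 6 had the same direction (2 called), and for MRL/MpJ against AKR/N 9 of 10 (2 called).

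The nearest tested gene on either side of a member was looked up in RefSeq order. These are often not the adjacent genes: of 243 such neighbours, 91 had no untested gene between, the median was 1 and the most was 100. Some neighbours were members themselves. 1700019D03Rik and 1700019A02Rik, both called lower in MRL/MpJ than in C57BL/6, were each counted as the other's neighbour. In MRL/MpJ against C57BL/6, 17 of 75 neighbours of called members were called themselves (22.7%), 13 in the member's direction, beside 16 of 168 neighbours of members not called (9.52%) and 12.2% of all tested genes. In AKR/N against C57BL/6 the counts were 8 of 50 (16%), 5 in the member's direction, and 20 of 193 (10.4%), beside 11.9%. In MRL/MpJ against AKR/N they were 10 of 84 (11.9%), 7 in the member's direction, and 12 of 159 (7.55%), beside 8.74%. These differences were not tested. At 1700003P14Rik the nearest tested genes were not called against C57BL/6, Mrps30 (0.19 in MRL/MpJ, -0.05 in AKR/N) and Fgf10 (0.20 and 0.24). Within 6 measured genes, Emb was called higher in both strains (0.74 and 0.61) and 4930435F18Rik lower (-1.25 and -1.40). The latter was dim throughout, with 43.6 and 30.0 in C57BL/6, 1.62 and 6.26 in AKR/N and 5.26 and 6.83 in MRL/MpJ. Itga1 and Parp8 were called higher in AKR/N only and Pelo in MRL/MpJ only. Nnt, 2 measured genes away, is the mitochondrial transhydrogenase known to carry a deletion in some C57BL/6 stocks. Whether these mice carry it was not tested. Nnt was called higher in MRL/MpJ (0.61) and in AKR/N (0.84) than in C57BL/6. It had 368.7 and 391.2 in C57BL/6, 645.3 and 743.4 in AKR/N and 560.3 and 614.7 in MRL/MpJ. At 1700063D05Rik, the nearest tested gene on 1 side, with 1 untested gene between, Ubash3b, a phosphatase of receptor signalling, was called in the direction opposite to the member, with 39.4 and 16.9 in C57BL/6 against 122.5 and 120.7 in AKR/N and 86.1 and 80.5 in MRL/MpJ. Sorl1, the nearest tested gene on the other side, with 17 untested genes between, differed by -0.29 and 0.02 from C57BL/6 and was not called. Within 6 measured genes of this member, Sc5d was called lower in MRL/MpJ and AKR/N than in C57BL/6 (-0.63 and -0.66). Clmp was called lower in MRL/MpJ only (-1.19). Crtam (0.55 and 0.44) and Pou2f3 (1.56 and 0.89) were called higher in both strains.

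Other RIKEN clone genes served as companions. Of 145 genes whose clone numbers belong to the same series as 4930435F18Rik, with a mean of at least 100, 24 were called lower in MRL/MpJ than in C57BL/6 (16.6%) and 12 higher, with a median of -0.07. Between MRL/MpJ and AKR/N 35 were lower (24.1%) and 11 higher. Of the 99 remaining RIKEN genes, 11 were lower (11.1%) and 5 higher (5.05%) in MRL/MpJ against C57BL/6, with a median of -0.02. All genes with a mean of at least 100 had 8.67% lower and 8.79% higher. Between MRL/MpJ and AKR/N 15 of the 99 were lower (15.2%) and 4 higher (4.04%), with a median of 0.02, beside 8.04% and 5.75%.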

How the data were processed

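The authors deposited linear probe set intensity values for 6 arrays (a GeneChip, 1 per mouse). RNA extraction used Trizol and labelling a one-cycle cDNA kit with biotin, per the labels. How probe sets were summarised is not given in the sources here. The deposited scaling was kept. After removal of 64 controls from 45101 probe sets, a filter kept the 29692 that exceeded the 40th percentile of an array on at least 2 arrays; all 126 members passed. Strain means were fitted to log2(intensity + 16), which understates changes of dim genes, by limma 3.58.1 (R 4.3.3; lmFit and eBayes with a variance trend; 3 residual and 7.58 prior degrees of freedom), and p-values were adjusted by Benjamini-Hochberg over all probe sets tested. The calculation was tested on simulated data. The 2 arrays per strain limit the precision.

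In the platform annotation 34945 probe sets had 1 symbol, 932 had several and 9160 had none. RefSeq classes, gene order and 5' sequences came from tables of GRCm38.p6; the array values carry no coordinates. Members and lists were chosen with earlier results of these data known. Named members are, per comparison, the 8 largest called rises and falls whose arrays do not overlap, the 10 of highest mean, those near absent in a strain, the 3 nearest the threshold on each side, and up to 6 with the smallest F test p per class; neighbours and further called members named beside them were chosen after their values were seen. A planned assignment of members to the strain that stands apart was left out, because its comparisons share arrays. Alternatives were quantile normalization, median centring, other filters, pseudocounts and thresholds, no variance trend, only the arrays compared, the mean of a gene's probe sets, a replicate block and leaving out each array.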

Additional observations from a re-analysis of the deposited data

How the results depend on the processing

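Leaving out each array in turn gave 18 to 34 called members for MRL/MpJ against C57BL/6, 12 to 29 for AKR/N against C57BL/6, 11 to 47 for MRL/MpJ against AKR/N and 37 to 58 for the F test. With no variance trend these counts were 6, 6, 2 and 7. The cause was not tested. Under the other settings run (normalizations, filters, pseudocounts, thresholds, only the arrays compared, the mean of a gene's probe sets and the replicate block) each of the 4 counts stayed within 1.5 times its value. The members' medians kept their sign under all settings run; without 1 array they were -0.17 to -0.10, 0.01 to 0.07 and -0.21 to -0.16. Median centring gave 7 higher and 24 lower in MRL/MpJ against C57BL/6, with a members' median of -0.09 beside 0.06 over all probe sets. Members near absent in a strain numbered 4 with a threshold of 50 and 1 with a threshold of 200, as the threshold sets which genes are counted. The difference of 1700017B05Rik in AKR/N against C57BL/6 turned to -0.011 as the mean of its probe sets. Leaving out the 4 members at 100 or more in 1 strain, a choice made after seeing the data, gave 36, 25, 43 and 55 calls. In every setting other than leaving out an array, 6 of 24, 6 of 23 and 2 of 23 named calls held, with the comparisons in the order above. Of the named calls, 10 of 24, 11 of 23 and 8 of 23 held without any 1 array.

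Deviations of same-numbered arrays correlated at 0.04 to 0.05 between strains, which does not settle whether the replicate numbers pair the mice. With the number as a replicate block the counts were 45, 33, 51 and 70. With 2 arrays per strain, and signal near background for members such as 1700063D05Rik in AKR/N and MRL/MpJ, the size of the largest differences is limited by the added 16 and is not a bound.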
